A study of Mus musculus with 2 samples.

Results

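The genes described here were 10 genes that mark the fibroblasts of the meninges, the membranes that wrap the brain. They were Col1a1, Col1a2, Col3a1, Slc6a13, Aldh1a2, Ogn, Dcn, Lum, Igf2 and Igfbp2, out of 21441 genes measured in mouse hypothalamus. They were chosen by name, after an earlier analysis of the same arrays had shown their differences between times of day. Those differences are therefore given as a description, with no test. On the array the 10 genes had 18 probes and 36 spots. Of the 18 probes, 13 were well above background on all 4 arrays, 4 on none and 1 on 2 arrays. Each gene had at least 1 probe above background on all 4 arrays, so no member was lost to a filter on low values.

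Fibroblasts form the pia and arachnoid, the thin inner membranes of the brain, and follow the larger vessels into the tissue. They make the collagens and proteoglycans of these membranes, carry transporters that separate cerebrospinal fluid from its surroundings, and release retinoic acid and insulin-like growth factor 2. The base of the hypothalamus is covered by such membranes, so a block cut around it carries some of them.

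The study compared mice whose feed held 0.5% bezafibrate, a drug that activates PPAR nuclear receptors, with control mice, at ZT10 and at ZT22. Zeitgeber time counts hours from lights on. In the treated groups mice aged 8 weeks received normal feed for 2 weeks, bezafibrate feed for 2 weeks and then normal feed for 5 weeks, and the labels do not settle at which point of this schedule the brains were taken. RNA of 4 mice was pooled for each of the 4 groups, which were control ZT10, bezafibrate ZT10, control ZT22 and bezafibrate ZT22, and each pool was hybridised to 1 one-colour array. The strain and sex are not given in the sources used here.

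All 4 arrays lay on 1 slide and shared 1 scan time. Control pools took positions 2 at ZT10 and 1 at ZT22, and bezafibrate pools took 4 at ZT10 and 3 at ZT22, so diet and the side of the slide cannot be told apart. Within each diet ZT22 took the position before ZT10, so time of day and position cannot be told apart either. Between 68.7% and 74.6% of the 43379 features were well above background, and no spot was saturated. Below, a level is the background-subtracted signal divided by the 75th percentile of all features on its array. Levels of different genes are not compared, because each probe has its own brightness. Errors after ± combine the signal errors that the scanner software reported for both arrays of a log2 ratio, which leaves out the spread between mice and between pools. With 1 pool per group no p-value is given for a pair of arrays, and a 1.5-fold difference (0.585 on the log2 scale) served as the mark for a large ratio. In a block of tissue, fewer cells of a type and less RNA per cell cannot be told apart.

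RefSeq's table of gene starts (build GRCm38.p6) held 7 of the 10 members, with 13 start sites among them. The 250 bases before the start are shown for Slc6a13, Ogn and Aldh1a2, the members with the highest ZT22 over ZT10 ratios in control mice, and for Col1a2, the member with the lowest ratio in bezafibrate mice. Capitals mark matches, on either strand, to TATAAA, the letters of a TATA box, to CCAAT, or to GGGCGG, the letters of a GC box. All 4 genes lie on the plus strand, and the windows are chr6:121300038-121300287 (the first of 3 Slc6a13 starts), chr13:49607765-49608014 (Ogn), chr9:71215539-71215788 (Aldh1a2) and chr6:4505368-4505617 (Col1a2).
Slc6a13: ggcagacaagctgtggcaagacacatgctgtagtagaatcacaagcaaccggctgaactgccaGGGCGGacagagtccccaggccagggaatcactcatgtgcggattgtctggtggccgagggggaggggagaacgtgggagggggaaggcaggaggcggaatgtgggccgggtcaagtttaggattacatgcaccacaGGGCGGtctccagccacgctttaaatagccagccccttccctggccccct
Ogn: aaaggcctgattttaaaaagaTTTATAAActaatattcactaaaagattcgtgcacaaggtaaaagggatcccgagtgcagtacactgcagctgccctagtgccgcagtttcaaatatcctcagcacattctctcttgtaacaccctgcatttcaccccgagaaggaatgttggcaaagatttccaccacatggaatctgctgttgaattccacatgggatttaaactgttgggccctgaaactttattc
Aldh1a2: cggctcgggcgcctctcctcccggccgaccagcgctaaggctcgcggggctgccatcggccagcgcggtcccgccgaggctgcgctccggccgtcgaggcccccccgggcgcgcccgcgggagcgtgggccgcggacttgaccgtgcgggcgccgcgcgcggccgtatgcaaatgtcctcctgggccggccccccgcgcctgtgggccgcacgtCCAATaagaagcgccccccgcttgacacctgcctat
Col1a2: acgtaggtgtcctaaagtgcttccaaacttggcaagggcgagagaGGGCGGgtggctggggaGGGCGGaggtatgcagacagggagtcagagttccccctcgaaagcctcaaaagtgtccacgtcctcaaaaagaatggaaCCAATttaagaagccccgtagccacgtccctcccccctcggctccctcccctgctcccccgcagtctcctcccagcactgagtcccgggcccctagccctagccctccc

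These windows had little in common. GC content was 60.8% for Slc6a13, 42.0% for Ogn, 77.6% for Aldh1a2 and 62.0% for Col1a2, beside a median of 52.4% over 32851 windows of the same length. The Slc6a13 window held GC boxes, as did that of Col1a2, which held a CCAAT box too. The Aldh1a2 window held a CCAAT box alone, and the Ogn window held TATAAA on both strands, in matches that overlap. Over all windows 12.4% held TATAAA, 33.8% CCAAT and 32.7% GGGCGG. Letters bound by factors of the circadian clock were searched as well, again on both strands. The E-box CACGTG occurred in 6.02% of all windows and, among the members, before the first Igfbp2 start. The D-box TTANGTAA occurred in 2.06% of all windows and in none of the 13 members' windows. AGGTCA, letters bound by ROR and REV-ERB receptors, occurred in 14.0% of all windows and, among the members, before 1 of 3 Slc6a13 starts and 1 of 4 Igf2 starts. A match is a description of letters and not a bound site.

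The membranes' transporter and retinoic acid enzyme had their higher levels at ZT22 in both diets. Slc6a13 (NM_144512), which encodes the GABA and taurine transporter GAT2, had a level of 0.723 in control and 0.703 in bezafibrate mice at ZT10, and of 1.24 and 1.28 at ZT22. Both ZT22 pools were thus above both ZT10 pools, and the pools of the same time lay close together. The ZT22 over ZT10 ratio was 1.71-fold in control mice (log2 ratio 0.78 ± 0.20) and 1.82-fold in bezafibrate mice (0.86 ± 0.20). A second probe for Slc6a13 gave 0.75 and 0.85. Its ratio ranked above 98.6% of genes in control mice and 99.4% in bezafibrate mice, the highest of the members in each.

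Slc6a12, the neighbouring gene, encodes the betaine and GABA transporter BGT1. Its level was 0.0982 and 0.0948 at ZT10 (control, then bezafibrate) and 0.216 and 0.162 at ZT22, which gave log2 ratios of 1.14 and 0.78. Of the related transporters, Slc6a11, a GABA transporter of astrocytes, had log2 ratios of -0.02 in control and 0.02 in bezafibrate mice. The taurine transporter Slc6a6 stood at -0.11 and -0.09, and the creatine transporter Slc6a8 at -0.16 and -0.14.

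Aldh1a2 (NM_009022), which makes retinoic acid from retinaldehyde, had a level of 0.454 and 0.432 at ZT10 and of 0.65 and 0.686 at ZT22 (control, then bezafibrate). Both ZT22 pools were above both ZT10 pools. The ratio was 1.43-fold in control mice (0.52 ± 0.20), just under the mark, and 1.59-fold in bezafibrate mice (0.67 ± 0.20). Other genes of retinoic acid handling, 16 of 17 of them above background on all arrays, had a median log2 ratio of 0.05 in control and 0.26 in bezafibrate mice. In control mice 10 of them were higher at ZT22, beside 58.1% of all genes. Rarg, a retinoic acid receptor (1.93), and Cyp26a1, which degrades retinoic acid (0.71), were past 1.5-fold. Both were named after their values were seen, and in bezafibrate mice they stood at -0.26 and 0.28. Their probes were dim. Rarg had a level of 0.113 on the control array at ZT22 and at most 0.035 on the other arrays. In bezafibrate mice 13 of the 16 were higher, beside 59.2% of all genes, and none reached 1.5-fold. Rxrg, Rxra and Rxrb, retinoid X receptors with the brightest probes of the list, lay between -0.03 and 0.16.

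**Figure D1:**
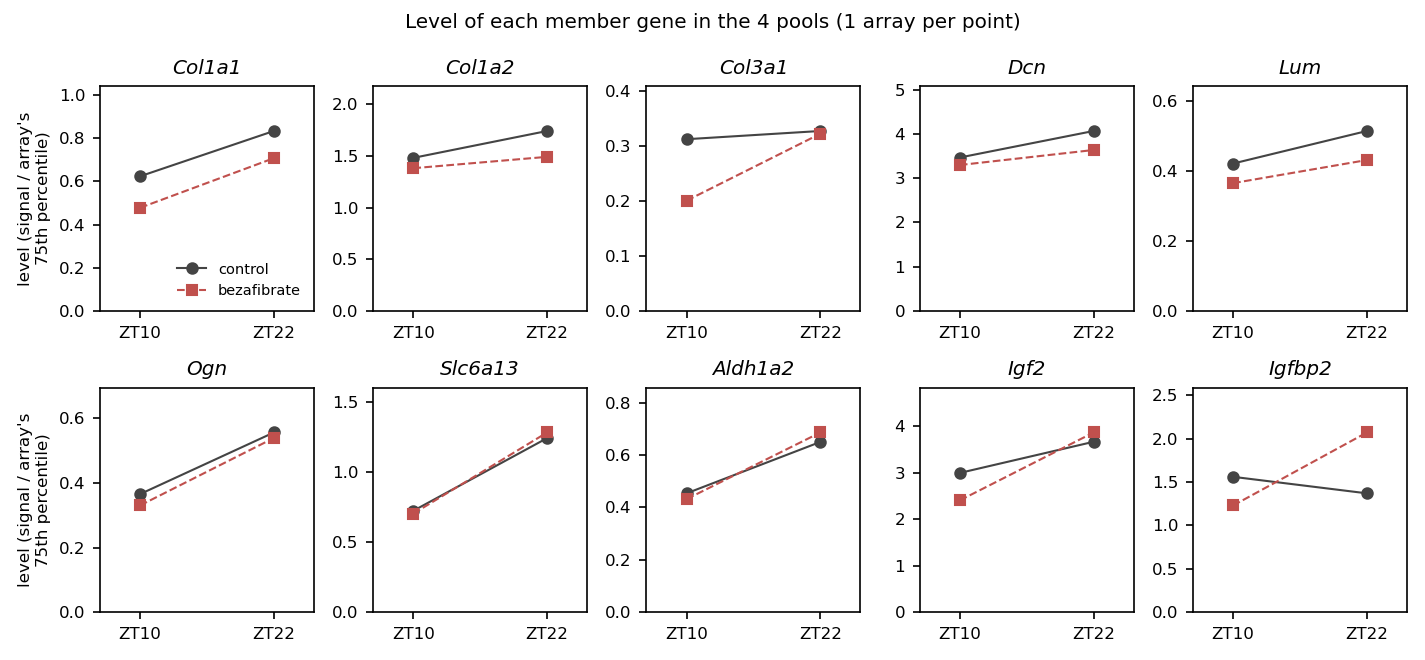
Level of each of the 10 members (vertical axis, signal divided by the 75th percentile of its array, linear from 0 with a scale of its own for each gene) at ZT10 and ZT22, with 1 point per array of 4 pooled mice and a line per diet. Slc6a13, Aldh1a2 and Ogn run upward from ZT10 to ZT22 in both diets, whereas the Igfbp2 lines cross, from 1.56 to 1.37 in control mice and from 1.23 to 2.07 in bezafibrate mice.

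Ogn, Dcn and Lum encode small leucine-rich proteoglycans, which bind collagen fibrils and set their width and spacing, and each had higher levels at ZT22 in both diets, by unequal amounts. Ogn (osteoglycin, NM_008760) had a level of 0.365 and 0.33 at ZT10 and of 0.555 and 0.538 at ZT22 (control, then bezafibrate). It was 1.52-fold higher at ZT22 in control mice (0.60 ± 0.20) and 1.63-fold in bezafibrate mice (0.71 ± 0.20). The control ratio was just past the mark and was 0.55 or 0.56 after a normexp background correction, below it.

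Dcn (decorin, NM_007833) had a level of 3.47 and 3.3 at ZT10 and of 4.07 and 3.64 at ZT22. Its log2 ratios of 0.23 ± 0.20 in control and 0.14 ± 0.20 in bezafibrate mice were close to or below the scanner error. Lum (lumican, NM_008524) had a level of 0.421 and 0.365 at ZT10 and of 0.514 and 0.431 at ZT22, with ratios of 0.29 ± 0.20 and 0.24 ± 0.20. For both genes the ZT22 pools were above the ZT10 pools, and the lowest ZT22 pool was the bezafibrate one. Dcn and Lum lie next to each other in the genome and had similar ratios.

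Of 9 other proteoglycans of this family, 6 were above background on all 4 arrays. Their median log2 ratio was 0.40 in control mice, with 6 of 6 higher at ZT22, beside 58.1% of all genes. In bezafibrate mice it was 0.29, with 4 of 6 higher, beside 59.2% of all genes. Omd (osteomodulin), the neighbour of Ogn, was past 1.5-fold in both diets, at 0.73 in control and 0.88 in bezafibrate mice. Fmod (fibromodulin; 0.36 and 0.58) and Prelp (0.40 and 0.49) were higher at ZT22 in both diets and under 1.5-fold in each. Bgn (biglycan) and Aspn (asporin) were higher at ZT22 in control mice, at 0.32 and 0.44, and stood at -0.15 and -0.44 in bezafibrate mice. The Aspn probe was dim, with errors of 0.32 and 0.42 on these ratios. These 4 genes were named after their values were seen.

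The fibrillar collagens, which build the fibres of the membranes, were all under 1.5-fold between the times in control mice. Col1a1 (NM_007742) encodes a chain of type I collagen. Its level was 0.624 and 0.478 at ZT10 and 0.834 and 0.708 at ZT22 (control, then bezafibrate). Both ZT22 pools were above both ZT10 pools, and in each diet the ratio was under 1.5-fold, at 1.34-fold (0.42 ± 0.20) and 1.48-fold (0.57 ± 0.20). The probe was printed at 10 places on each array, which shows how far spots of the same RNA scatter. On the control array at ZT10 the 10 spots ran from 0.591 to 0.685 with a median of 0.618, and on the bezafibrate array at ZT10 from 0.445 to 0.525 with a median of 0.475. At ZT22 they ran from 0.784 to 0.896 (median 0.829) in control and from 0.68 to 0.74 (median 0.713) in bezafibrate mice. The 4 ranges did not overlap except for a small one between control at ZT10 and bezafibrate at ZT22. These spots repeat the hybridisation of 1 pool and say nothing about the spread between mice.

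Further Col1a1 probes were dim. A_51_P377094 had levels of 0.0329, 0.0259, 0.0294 and 0.0326 (control ZT10, bezafibrate ZT10, control ZT22, bezafibrate ZT22) and ratios of -0.16 ± 0.28 in control and 0.33 ± 0.33 in bezafibrate mice. In control mice it went the other way from the brighter probe, within its own error, and the mean over both gave 0.13. A_52_P658611 was above background only on the bezafibrate array at ZT10 and the control array at ZT22, and was at least 2.02-fold higher at ZT22 in control mice and at least 1.96-fold lower at ZT22 in bezafibrate mice. For each such bound the dim array was set to its lowest signal among probes well above background. That signal is not a limit of detection, so the bounds are approximate.

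Col1a2 (NM_007743), the partner chain of type I collagen, had a level of 1.48 and 1.38 at ZT10 and of 1.74 and 1.49 at ZT22. The pools lay close together, and the ratios of 0.24 ± 0.20 and 0.11 ± 0.20 were near or below the scanner error. Col3a1 (NM_009930), type III collagen, had a level of 0.313 and 0.201 at ZT10 and of 0.328 and 0.323 at ZT22. A single pool stood apart, the bezafibrate pool at ZT10, and the other 3 lay within 0.313 to 0.328. Its time ratio was 0.07 ± 0.20 in control and 0.68 ± 0.21 in bezafibrate mice.

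All 12 other fibrillar and associated collagens were above background, with a median log2 ratio of 0.09 in control and 0.22 in bezafibrate mice. Of the 12, 9 and 8 were higher at ZT22, beside 58.1% and 59.2% of all genes. Col8a2, a short-chain collagen named after its value was seen, was alone past 1.5-fold, in control mice (0.64), and stood at 0.48 in bezafibrate mice. The 3 with the brightest probes, Col16a1, Col8a1 and Col11a1, lay between -0.22 and 0.37. Collagens of the basement membrane, which vessels share, had medians of 0.08 and -0.01 over 6 genes, with none past 1.5-fold. Col4a2, Col18a1 and Col4a1, the brightest of them, ranged from -0.06 to 0.14.

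Genes that fold, trim and cross-link collagen had medians of 0.10 and 0.08 over 15 genes. Pcolce, an enhancer of procollagen trimming named after its value was seen, was past 1.5-fold in bezafibrate mice (0.72) and stood at 0.36 in control mice. Serpinh1, the collagen chaperone, had ratios of 0.43 and 0.23. Sparc and P4hb, which many cell types make, lay between -0.08 and 0.21.

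**Figure D2:**
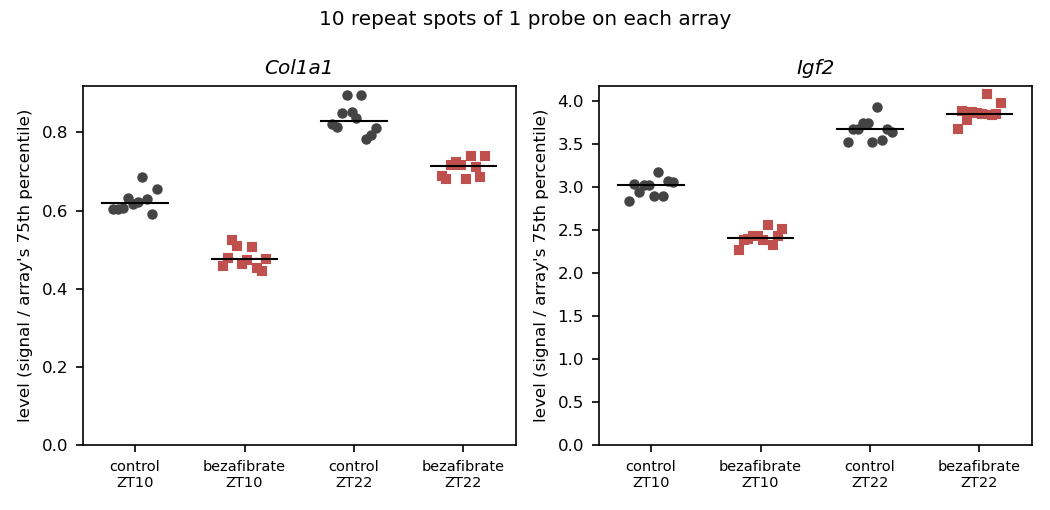
Level of each of the 10 repeat spots of the Col1a1 and Igf2 probes on the 4 arrays (signal divided by the array's 75th percentile), with each array's median as a line. Col1a1 medians are 0.618, 0.475, 0.829 and 0.713 and Igf2 medians 3.03, 2.41, 3.67 and 3.86 (control ZT10, bezafibrate ZT10, control ZT22, bezafibrate ZT22), and spots of 1 array scatter less than the arrays of different times differ within a diet.

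The growth factor Igf2 and the binding protein Igfbp2 were past 1.5-fold between the times in bezafibrate mice and under it in control mice, a difference that was not tested. Igf2 (NM_010514) encodes insulin-like growth factor 2, which in the adult brain comes mainly from the membranes and the choroid plexus. Its level was 3.0 and 2.41 at ZT10 and 3.67 and 3.87 at ZT22 (control, then bezafibrate). Both ZT22 pools were above both ZT10 pools, by 1.22-fold in control (0.29 ± 0.20) and 1.60-fold in bezafibrate mice (0.68 ± 0.20). A second probe gave 0.25 and 0.61. The 10 repeat spots on each array ran from 2.84 to 3.18 in control and 2.27 to 2.56 in bezafibrate mice at ZT10, and from 3.52 to 3.93 and 3.67 to 4.09 at ZT22.

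Igfbp2 (NM_008342) encodes a secreted protein that holds insulin-like growth factors. Its level was 1.56 and 1.23 at ZT10 and 1.37 and 2.07 at ZT22. It was the sole member lower at ZT22 in control mice (-0.20 ± 0.20), and in bezafibrate mice it was 1.69-fold higher (0.75 ± 0.20). The difference between these log2 ratios was 0.95, the largest of the members, followed by 0.62 for Col3a1 and 0.39 for Igf2. The other 7 members ranged from -0.13 to 0.15. These values are of the brightest probe of each gene, and the dim Col1a1 probe A_51_P377094 gave 0.49. A log2 ratio larger by 0.585 or more in bezafibrate mice was found in 2 of 10 members and in 2.87% of genes, and 7 of 10 members had the larger ratio in bezafibrate mice, beside 50.7% of genes.

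The choroid plexus also makes Igf2 and Igfbp2. Markers of its epithelium were high in the bezafibrate pool at ZT22. Igfbp2 had its highest level there too, at 2.07 beside 1.37 in control mice at ZT22. Igf2 stood close together in these pools, at 3.87 and 3.67. Ttr (transthyretin) had a level of 0.0582, 0.0597, 0.109 and 1.48 (control ZT10, bezafibrate ZT10, control ZT22, bezafibrate ZT22). Kcne2, a potassium channel subunit, had ZT22 over ZT10 ratios of 0.71 in control and 3.42 in bezafibrate mice. Of 12 listed markers 10 were above background on all arrays, with summed levels of 7.21, 6.92, 8.42 and 11.2 in the same order of arrays. Clic6, the brightest, weighed most in this sum, at 5.54, 5.32, 6.5 and 6.43. At ZT22, 9 of the 10 were higher in bezafibrate mice and 1 lower, beside 47.8% of all genes lower. Of the 9, 7 were higher by 1.5-fold or more, beside 1.28% of all genes. The marker Folr1 was counted among the 7 at a log2 ratio of 1.3. Its other probe gave -0.25 and so disagrees. In control mice the median time ratio of the 10 markers was 0.18, beside 1.01 in bezafibrate mice. Markers of tanycytes and ependyma, brain cells described below, had a median bezafibrate over control log2 ratio of 0.65 at ZT22 over 5 genes. Of these 3 were higher and 2 lower, beside 47.8% of all genes lower. Their median time ratios were -0.10 in control and 0.38 in bezafibrate mice. The part of these cells and of the choroid plexus in the Igf2 and Igfbp2 values was not tested.

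The rest of the insulin-like growth factor axis, its receptors, carriers and signalling genes, had medians near 0. Over 13 of 17 listed genes above background on all arrays, the median log2 time ratio was -0.01 in control and 0.02 in bezafibrate mice. Igfbp7, Igfbp5 and Irs1, the brightest of them, lay between -0.17 and 0.16. Another Irs1 probe gave -0.71 in control and 0.44 in bezafibrate mice and so disagrees. Igfbp3 was alone past 1.5-fold, in bezafibrate mice (0.67, and -0.02 in control mice). Another Igfbp3 probe gave 0.09 in bezafibrate and 1.60 in control mice, so the probes disagree. Igfbp6, a carrier that prefers Igf2, had ratios of 0.37 and 0.57. Igfbp3 and Igfbp6 were named after their values were seen.

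Set against all genes, the members were high in the comparison that had brought them to attention. In control mice 2 of 10 (Slc6a13 and Ogn) were at least 1.5-fold higher at ZT22, beside 2.54% of the 16405 genes compared, and 9 of 10 were higher by any size, beside 58.1%. In bezafibrate mice, which share no array with the control mice, 6 of 10 (Col3a1, Slc6a13, Aldh1a2, Ogn, Igf2 and Igfbp2) were at least 1.5-fold higher, beside 2.03% of 16006 genes, and 10 of 10 were higher by any size, beside 59.2%. The Col1a1 ratio of 0.57 lay just outside the mark there, and the Aldh1a2 ratio of 0.52 in control mice. In both diets at once, 2 of 10 passed 1.5-fold, beside 0.289% of 15911 genes, and 9 of 10 were higher by any size, beside 42.8%. Both ZT22 pools stood above both ZT10 pools for 9 of 10 members, Igfbp2 being the exception, and for 34.1% of genes. The members' median was 0.29 in control mice, where the median of all genes was 0.03, and 0.67 in bezafibrate mice, where it was 0.04. These shares describe genes whose choice rested on the same contrast, and nothing is read from them.

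**Figure D3:**
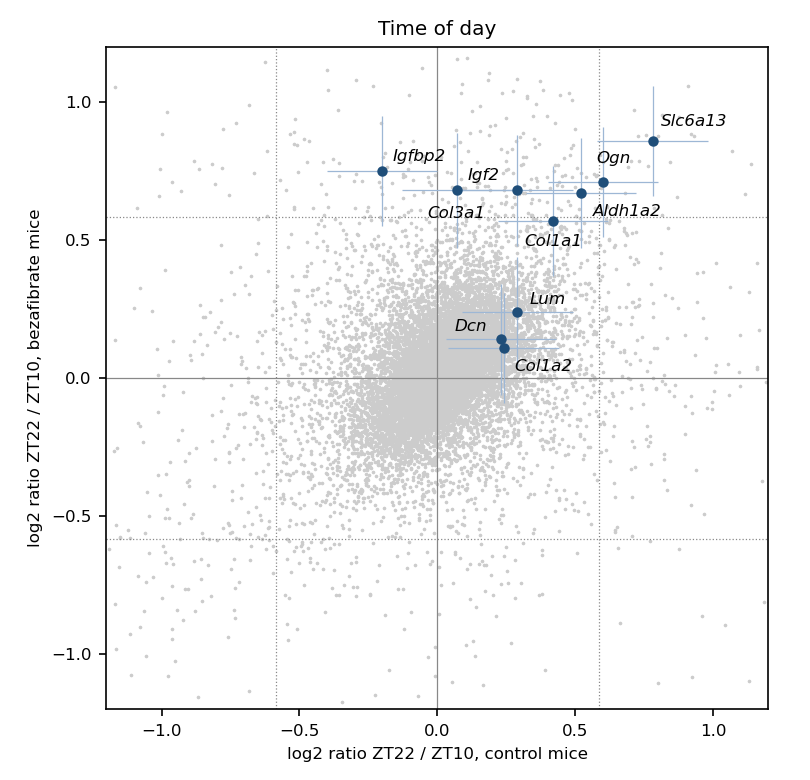
ZT22 over ZT10 log2 ratio of each member in control mice (horizontal axis) and in bezafibrate mice (vertical axis), with genes above background on all 4 arrays in grey as far as the axes reach, bars for the scanner error and dotted lines at 1.5-fold. Slc6a13 at 0.78 and 0.86 and Ogn at 0.60 and 0.71 are past the 1.5-fold mark in both diets, and Igfbp2 at -0.20 and 0.75 is the member left of 0.

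Between diets the members' differences were smaller, and their direction at ZT10 was already known from earlier work on these arrays. At ZT10 10 of 10 members were lower in the bezafibrate pool than in the control pool, beside 47.3% of genes. Only Col3a1 was at least 1.5-fold lower (-0.64 ± 0.21), beside 1.38% of the 16112 genes compared, and it was at -0.54 after normexp correction, under the mark. Col1a1 (-0.38 ± 0.20), Igfbp2 (-0.35 ± 0.20), Igf2 (-0.31 ± 0.20) and Lum (-0.21 ± 0.20) followed, and Ogn, Col1a2, Dcn, Aldh1a2 and Slc6a13 ranged from -0.15 to -0.04, less than the scanner error. The bezafibrate pool at ZT10 held the lowest of the 4 levels for 10 of 10 members, beside 27.9% of genes. Both counts use the brightest probe of each gene. A dim Col1a1 probe, A_52_P658611, went the other way and was, by an approximate bound, at least 2.61-fold higher in the bezafibrate pool at ZT10. The members' median was -0.18 and that of all genes 0.01. Of 34 other fibroblast genes 20 were lower at ZT10, with a median of -0.02 and none past 1.5-fold.

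At ZT22 the diets differed without a common direction. Igfbp2 was 1.52-fold higher in the bezafibrate pool (0.60 ± 0.20), the sole member past the mark, beside 1.28% of 16210 genes. It was below the mark after normexp correction (0.56 or 0.57) and in the authors' deposited ratio table (0.53). Slc6a13 (0.04), Aldh1a2 (0.08) and Igf2 (0.08) were within the scanner error. The other 6 members were lower, beside 47.8% of genes, from -0.25 ± 0.20 for Lum, -0.24 ± 0.20 for Col1a1 and -0.23 ± 0.20 for Col1a2 to -0.16 for Dcn, -0.05 for Ogn and -0.02 for Col3a1. These 6 were lower in bezafibrate mice at both times, as were 24.8% of genes, and the other 4 were lower at ZT10 and higher at ZT22, as were 22.7%. The members' median was -0.04.

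An additive fit over all 4 arrays, with time as a covariate, gave the sole test of diet. It had 1 residual degree of freedom and assumed the same diet effect at ZT10 and ZT22. Since the members' direction at ZT10 was known beforehand from these arrays, their values in the fit are a description. By limma with Benjamini-Hochberg adjustment over 17549 genes, 0 members and 0% of genes had an adjusted p under 0.05. At an unadjusted p under 0.05 there were 2 members, beside 5.4% of genes. They were Col1a1 (log2 diet effect -0.31, SE 0.07, lower in bezafibrate pools at 2 of 2 times) and Lum (-0.23, SE 0.05, also lower at 2 of 2 times), each with a limma adjusted p of 0.872. The limma adjusted p of the other 8 members ranged from 0.872 to 0.995. The Col1a1 values are those of its brightest probe. The dim probe A_51_P377094 had a diet effect of -0.1, with ratios of -0.34 ± 0.32 at ZT10 and 0.15 ± 0.29 at ZT22. At ZT22 the dim probe A_52_P658611 was, by an approximate bound, at least 1.52-fold lower in the bezafibrate pool.

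**Figure D4:**
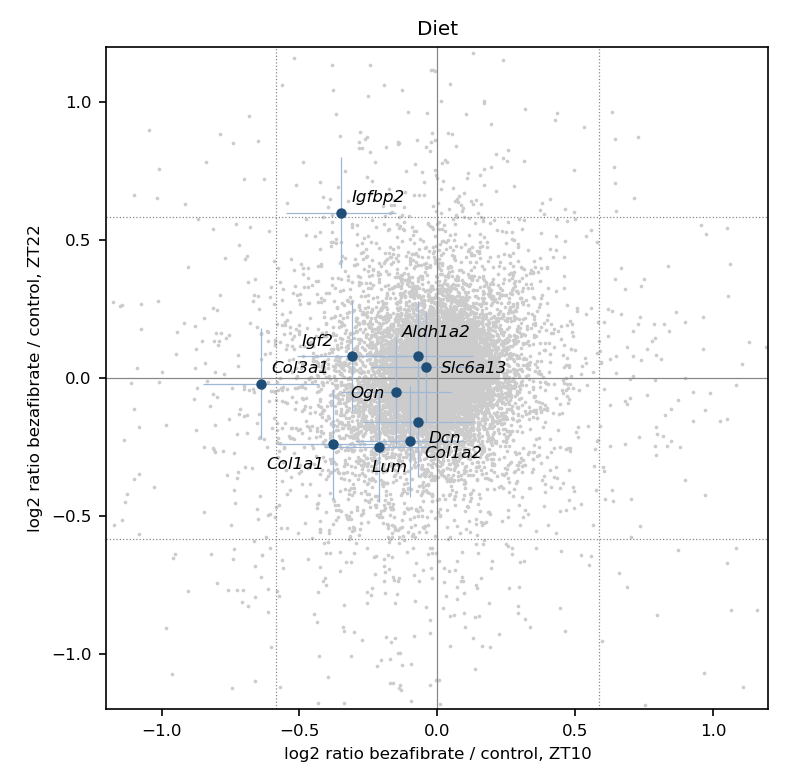
Bezafibrate over control log2 ratio of each member at ZT10 (horizontal axis) and at ZT22 (vertical axis), with other genes in grey as far as the axes reach, bars for the scanner error and dotted lines at 1.5-fold. All 10 members lie left of 0 at ZT10, down to -0.64 for Col3a1, and at ZT22 they spread from -0.25 for Lum to 0.60 for Igfbp2.

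Other genes of meningeal and perivascular fibroblasts were higher at ZT22 more often than lower, by small amounts at the median. Of 38 such genes 34 were above background on all arrays. In control mice 27 were higher at ZT22 and 6 lower, with a median of 0.19, beside 58.1% of all genes higher. In bezafibrate mice 25 were higher and 9 lower, with a median of 0.16, beside 59.2% of all genes higher. Ptgds, the prostaglandin D2 synthase of the membranes, the choroid plexus and oligodendrocytes, was the gene past 1.5-fold in both diets. Its level was 37.5 and 37.8 at ZT10 and 57.4 and 58.2 at ZT22 (control, then bezafibrate), which gave log2 ratios of 0.61 and 0.62.

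In control mice the transporter Slc47a1 (0.69) and the transcription factors Foxc2 (0.70) and Tbx18 (0.60) also passed 1.5-fold, and in bezafibrate mice the organic anion transporter Slc22a6 (0.85) and the matrix gene Fbln1 (0.64) did. In the other diet they stood at 0.52, 0.44, 0.37, 0.37 and 0.25. These 5 were named after their values were seen. Some genes used as general fibroblast markers differed little, among them Pdgfra (-0.02 and -0.11), which oligodendrocyte precursors share, and Mgp (-0.07 and -0.04). Pdgfra and Mgp too were named with their values known.

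**Figure D5:**
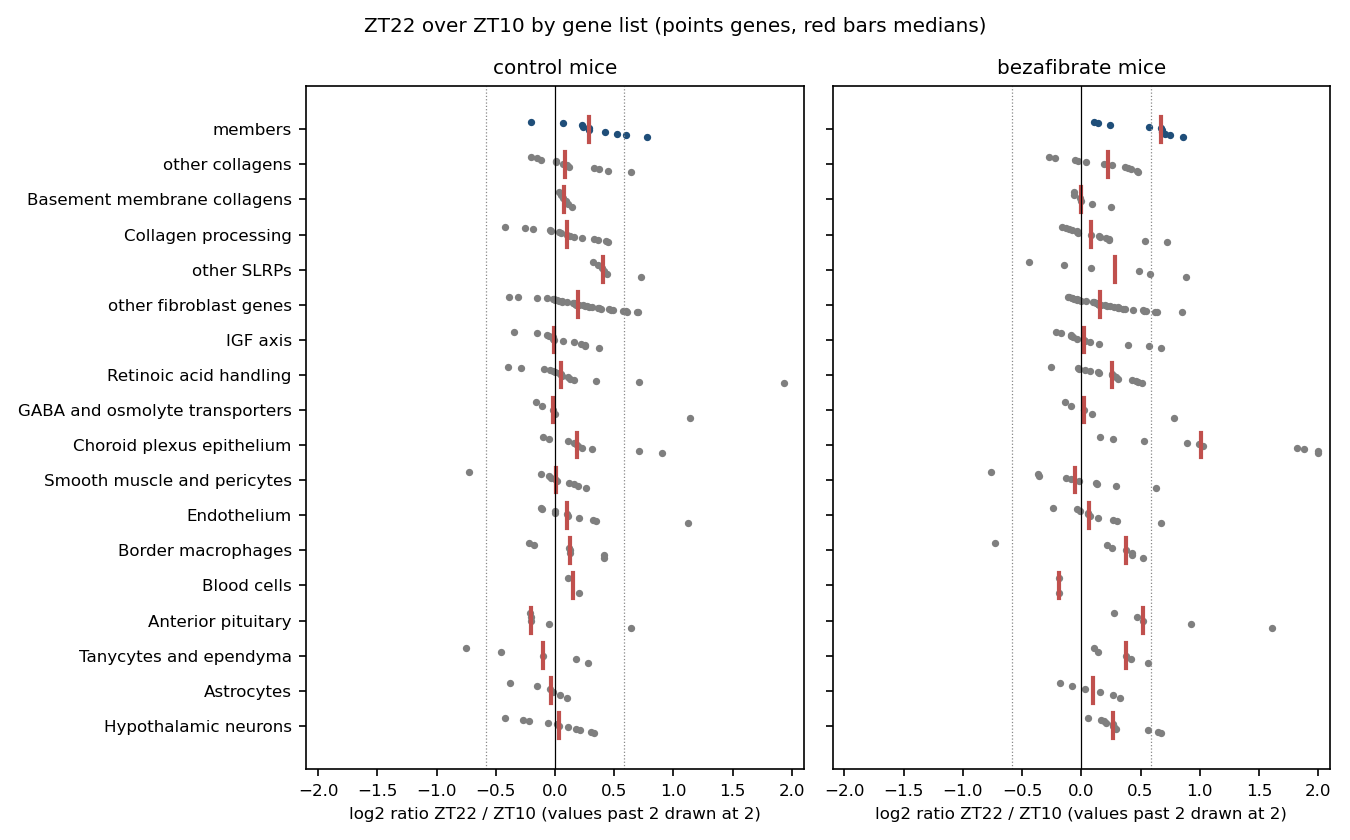
ZT22 over ZT10 log2 ratio of the genes of each list in control and in bezafibrate mice, 1 point per gene above background on all 4 arrays, with the list's median as a red bar, dotted lines at 1.5-fold and values past 2 drawn at 2. The members have medians of 0.29 and 0.67, the other fibroblast genes 0.19 and 0.16, and the choroid plexus markers 0.18 and 1.01.

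Levels of markers of other cells in the block were summed on each array. Each sum follows mainly its brightest probes, so sums of different lists are not compared. Markers of smooth muscle and pericytes had summed levels of 16.0, 15.1, 15.9 and 15.7 (control ZT10, bezafibrate ZT10, control ZT22, bezafibrate ZT22) and median time ratios of 0.01 and -0.06 over 10 of 10 genes. Myh11, smooth muscle myosin, was lower at ZT22 in both diets, at -0.73 and -0.76. Endothelial markers, 10 of 10 above background, summed to 42.4, 42.2, 47.0 and 45.5 with medians of 0.11 and 0.07. Cldn5, a tight junction protein of brain vessels, was higher at ZT22 in both diets (1.12 and 0.67). The members themselves summed to 12.4, 10.8, 15.0 and 15.0. The part of these cells in the members' values was not tested.

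Border macrophages live in the same membranes. Their 7 of 7 measured markers summed to 1.61, 1.43, 1.54 and 1.22. Cbr2 weighed most in this sum, at 1.0, 0.885, 0.858 and 0.532. The 7 markers were all lower in the bezafibrate pool at ZT10, with a median of -0.24, as the members were, beside 47.3% of genes. Between times their medians were 0.13 in control and 0.38 in bezafibrate mice, and Cbr2 (-0.22 and -0.73), the brightest, ran against Pf4 (0.13 and 0.22) and F13a1 (0.12 and 0.38). Their part in the members' values was not tested.

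Blood cell markers (2 of 4 above background on all arrays) summed to 17.9, 17.9, 19.3 and 15.7, with Hba-a1, a haemoglobin chain, at 0.11 and -0.19 and Alas2, an enzyme of haem synthesis, at 0.20 and -0.19. Anterior pituitary markers (5 of 8) summed to 4.92, 3.29, 4.46 and 6.06, lowest in the bezafibrate pool at ZT10. Prolactin (Prl) and growth hormone (Gh) are outside this sum, as neither was above background in the bezafibrate pool at ZT22. Prl had levels of 0.376, 0.0169, 0.0586 and 0.0027 and Gh of 0.199, 0.0151, 0.0633 and 0.0104, so both were lowest in that pool, where the sum was highest. In control mice they were lower at ZT22, at -2.68 for Prl and -1.65 for Gh. The brightest genes in the sum were Cga (-0.20 and 0.93), Lhb (-0.20 and 0.28) and Pitx1 (0.64 and 0.47), which encode hormone subunits and a pituitary transcription factor. The part of either in the members' values was not tested.

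Markers of brain cells had medians near 0 between times in control mice. Tanycytes and ependyma (5 of 6) had medians of -0.10 in control and 0.38 in bezafibrate mice and sums of 6.01, 6.52, 5.65 and 8.86, with Crym (-0.10 and 0.56), Foxj1 (0.18 and 0.11) and Dio2 (-0.46 and 0.42) the brightest. Astrocytes (6 of 6) had medians of -0.03 and 0.10 and sums of 79.4, 77.1, 80.3 and 89.1, with the glutamate transporters Slc1a2 (-0.02 and 0.27) and Slc1a3 (0.10 and 0.16) and the enzyme Aldh1l1 (-0.04 and 0.03) the brightest. Another Slc1a3 probe gave -0.47 and -0.19 and so disagrees. Further Slc1a2 probes gave 0.43 and 0.11, 0.05 and 0.24, and 0.01 and 0.21. Hypothalamic neuron genes (11 of 12) had medians of 0.03 and 0.27 and sums of 294.0, 255.0, 306.0 and 310.0, so the labelled tissue carried its own markers on every array. Agrp and Npy, peptides that promote feeding, were the genes of that list past 1.5-fold between diets at both times.

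By the likeness rule, the 8 genes whose centred log2 profile over the 4 arrays lay nearest the members' median profile were sought among 15901 other genes above background on all 4 arrays. The members' median profile was -0.06 in control and -0.36 in bezafibrate mice at ZT10 and 0.23 in both at ZT22. The nearest genes, by Euclidean distance, were Cyth4 (0.04), Bbof1 (0.043), Gprc5c (0.051), 4930449E01Rik (0.056), Maf (0.058), Slc7a5 (0.062), Morn5 (0.065) and Aspg (0.067). None was in the lists described above. Cyth4, for example, had levels of 3.52, 2.85, 4.29 and 4.41. Such nearness over 4 arrays is a description only. Among the members Igf2 lay nearest the median profile, at a distance of 0.07, and Igfbp2 and Slc6a13 lay farthest, at 0.46 and 0.43.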

How the data were processed

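Intensities were measured on 4 one-colour whole-mouse-genome arrays, each loaded with RNA labelled from 400 ng of total RNA of a pool of 4 mice. Per the file headers, the authors extracted spots with Feature Extraction 9.5.1.1, and the deposited processed signal is an intensity that is background-subtracted and not normalised between arrays. The files also hold its error and marks for spots well above background, saturated or outlying, which are other values, deposited as 0 or 1. Per the labels, the deposited value table is a ratio of the bezafibrate over the control array. It correlated with the scaled signal ratio at r of 0.996 (ZT10) and 0.995 (ZT22) across spots and differed from it by a constant log2 shift of -0.09 and -0.07. Its medians were -0.08 and -0.06 on the log2 scale, and how it was centred is unknown. It was used as an alternative only. The diet of each array came from the names of the array files and the direction of this table.

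The log2 signal was set relative to each array's 75th percentile. Control and outlier spots (73 to 142 outliers per array) were dropped before repeat spots of a probe were averaged. Of 41174 probes, 22944 matched RefSeq's gene table (GRCm38.p6) by accession, 5855 by current symbol and 3943 by older symbol, 2228 kept the file's name and 6204 had none. Genes were represented by the probe with the highest mean signal, and pairs of arrays were compared for genes well above background on both. For bounds, a dim probe was set to its array's lowest signal among probes well above background, or to its own if higher. Ratios of pools carry no test. The additive fit used limma 3.58.1 (lmFit, eBayes, Benjamini-Hochberg) on 17549 genes above background on at least 1 array, with 1 residual degree of freedom and a prior of 1.28. The procedures were tested on simulated data.

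The members and lists were chosen with earlier results of these data known. List genes were named when above background on all 4 arrays and past 1.5-fold in the same direction between times in both diets or between diets at both times, up to 6 per list, otherwise the 3 with the highest mean signal. The number of arrays limits the precision. Alternatives were median and quantile scaling, normexp (offset 50) with either scaling, a minimum mean signal of 100, no filter, the mean over probes, outlier spots kept and the deposited ratio table. The values of 1 listed gene are not reported here.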

Additional observations from a re-analysis of the deposited data

Results flagged for a closer look

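Of the members, 4 had ratios of opposite sign in the groups compared, and none of these differences was tested, since each group is 1 pool. Igfbp2, the carrier of insulin-like growth factors, had a ZT22 over ZT10 log2 ratio of -0.20 in control and 0.75 in bezafibrate mice, and a bezafibrate over control ratio of -0.35 at ZT10 and 0.60 at ZT22. The bezafibrate over control ratio of Igf2 was -0.31 at ZT10 and 0.08 at ZT22. Slc6a13, the GABA and taurine transporter, had -0.04 and 0.04, and Aldh1a2, the retinoic acid enzyme, had -0.07 and 0.08. The values of Slc6a13 and Aldh1a2 were all smaller than the scanner error of 0.20, as was the Igf2 value at ZT22.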

How the results depend on the processing

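Of 340 recomputed values of single members, 339 stayed within the scanner error of the reported value and 1 moved, the Col1a1 time ratio in control mice, to 0.13 with the mean over probes. Of 102 recomputed counts and medians, 95 were alike and 7 moved. After normexp correction with either scaling, members at least 1.5-fold higher at ZT22 in control mice numbered 1, not 2, and those past 1.5-fold between diets numbered 0, not 1, at ZT10 (lower) and at ZT22 (higher). In the deposited ratio table the count at ZT22 was also 0. No value past 1.5-fold changed sign. The sign of each member's ratio held in all settings except those of Slc6a13 (-0.03) and Igf2 (0.0) at ZT22 in the deposited table. The additive fit called 0 genes under each of its alternatives. Over all genes, 172 were higher and 223 lower by 1.5-fold with diet at ZT10, a split that quantile scaling turned to 214 and 181. The cause was not tested. Each group was 1 pool on 1 array. No paired analysis was therefore possible beyond the additive fit, in which time as a covariate compares the diets within each time. Leaving out an array left no residual degree of freedom. Dim probes carry larger errors, 0.28 to 0.33 for a further Col1a1 probe and 0.32 to 0.42 for Aspn.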
